A study of Homo sapiens with 12 samples.

Results

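The contigs of the human reference that carry no ribosomal DNA (rDNA) and are not assembled into a chromosome were examined in 2 clear cell renal cell carcinoma (ccRCC) lines. Their members are all CCGG sites that the deposited files place on a sequence whose name begins with GL, apart from the rDNA contig GL000220.1. This gave 57 contigs with 3360 sites, out of 1019951 sites with a tag anywhere in the series. A contig was read out on its own where its MspI tags numbered 20 or more in every one of the 6 MspI libraries, which held for 36 contigs and not for 21. The rule uses MspI tags only, so the HpaII values below played no part in it. The contigs just inside the limit were GL000191.1, GL000244.1 and GL000249.1, with 26.6, 34.2 and 40 MspI tags in their poorest library. Those just outside were GL000238.1 and GL000234.1, with 18.8 tags each, and GL000239.1, with 16. The 21 contigs left out held between 2.59% and 3.65% of the MspI tags of all 57.

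GL contigs are pieces of the reference that could be sequenced but not set in order. Some are known to belong to a chromosome without a position on it (unlocalized), and others are tied to no chromosome (unplaced), and the files do not say which is which. Such pieces are rich in segmental duplications, satellite and other repeats. Repeats of this kind are heavily methylated in most normal human tissues and often lose methylation in cancer. Methylated cytosine can be oxidised to hydroxymethylcytosine by the TET enzymes, which ascorbic acid supports as a cofactor.

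Line 769 and line 786 each gave 1 untreated control DNA and 2 DNAs from cells treated with AA, an abbreviation that the series title allows to be read as ascorbic acid. Dose and duration are not given in the sources used here. The labels do not say whether the AA replicates were separate cultures, so p-values measure only the spread between these samples. Each of the 6 DNAs was cut with HpaII and, in a separate reaction, with MspI, which makes 12 HELP-tagging libraries. Both enzymes recognise CCGG, but HpaII is blocked when the inner cytosine is methylated or hydroxymethylated, and MspI cuts either way. The readout is therefore the share of a library's HpaII tags that fell on a contig over the share of the MspI tags of the same DNA, called the ratio. A ratio of 1 is the average of everything sequenced, and a higher ratio means more cutting by HpaII, hence less methylation, relative to that average. Because it is relative, the ratio does not give the methylated fraction of a site.

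Depth differed widely between libraries. MspI libraries held between 3785890 and 12442031 tags, and HpaII libraries between 189704 (the 786 control) and 11054037. On the 57 contigs the MspI libraries had between 9215 and 29191 tags. The HpaII libraries had 6478 tags on them in the 769 control, 10811 and 3645 in 769 AA replicates 1 and 2, 612 in the 786 control, and 25370 and 9950 in 786 AA replicates 1 and 2. The 786 control thus stands apart by its depth, and many of its contig values rest on few tags: of the 36 contigs read out below, 6 had none in it.

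The contigs were not evenly unique in sequence. Between 72.9% and 79.5% of their MspI tags, and between 70.3% and 84.3% of their HpaII tags, lay at sites whose count was not a whole number, as happens when a tag is divided over several places of alignment. On chromosomes 1 to 22 and X the MspI share at such sites was between 9.99% and 12%. A value for a contig therefore often includes tags that other copies of the same sequence could have given. Some contigs also shared tags with each other, seen as sites with identical divided counts in every library. GL000213.1 and GL000215.1 had 40 such pairs of sites, which held 62.9% and 40.2% of their HpaII tags. GL000194.1 and GL000218.1 had 12 pairs, with 26.5% and 25.8% of their HpaII tags, and GL000216.1 and GL000225.1 had 12 pairs, with 17.4% and 3.29%. Contigs of these pairs are not independent of each other.

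Taken as 1 class, the contigs were cut by HpaII less than the library average in 769 and about as much as the average, or more, in 786. The class ratio was 0.481 in the 769 control and 0.613 and 0.481 in 769 AA replicates 1 and 2. In 786 it was 1.40 in the control and 0.981 and 0.985 in the AA replicates. All 3 samples of 786 lay above all 3 of 769, with means of 1.12 ± 0.240 and 0.525 ± 0.0763 (SD, n = 3 each). The fold between lines was 2.12 (log2 difference 1.08), and the exact two-sided permutation p was 0.1, the smallest that 3 against 3 samples allow. The HpaII share behind the 786 control was 0.323% of its tags, with a 95% Wilson interval of 0.298% to 0.349% that covers counting error only, since no molecular identifier marks the tags before PCR.

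MspI tags of the class overlapped between the lines. They made up 0.235%, 0.255% and 0.243% of the libraries of the 769 control and AA replicates 1 and 2, and 0.231%, 0.234% and 0.252% in the same order in 786. The fold of 786 over 769 was 0.978 (exact permutation p = 0.5). The HpaII shares did not overlap, at 0.113%, 0.156% and 0.117% in 769 and 0.323%, 0.230% and 0.248% in 786, in that order.

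The high value of the 786 control rests in part on 1 site. In that library 38.1% of all HpaII tags on the 57 contigs lay at position 36309 of GL000225.1, while in the other 5 libraries the richest single site held between 1.80% and 4.54%. Without GL000225.1 the class ratio was 0.555 ± 0.0787 in 769 and 0.905 ± 0.0517 in 786 (SD, n = 3 each), and the lines still did not overlap. The fold between them was then 1.64, again with an exact permutation p of 0.1.

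No change of the class with AA passed the test. The mean log2 fold of the AA samples over the control of their line was -0.17 (exact permutation within lines, p = 0.667, where 0.111 is the smallest possible). The log2 fold of the AA mean was 0.17 in 769 and -0.51 in 786. Without GL000225.1 these were 0.14 in both lines, and the mean over both, also 0.14, had the opposite sign to that of the whole class (exact permutation p = 0.444). At sites with whole counts only, the mean over both lines was 0.37 (exact permutation p = 0.111, the smallest possible).

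**Figure D1:**
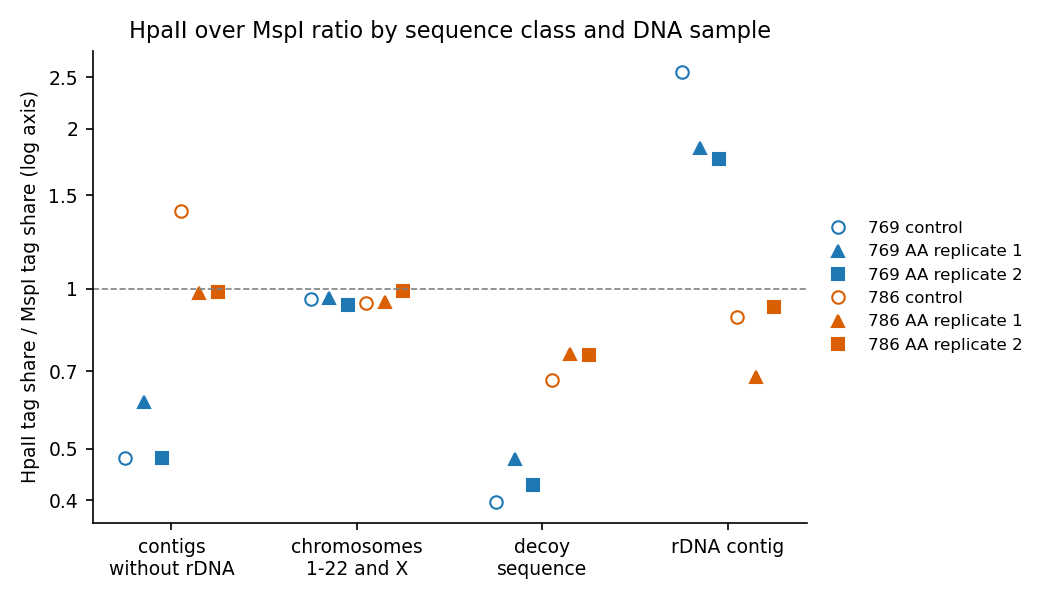
HpaII over MspI tag share (log axis) of the contigs without rDNA, chromosomes 1 to 22 and X, the decoy sequence and the rDNA contig, with 1 point per DNA sample and no averaging. On the contigs the 769 samples lie between 0.481 and 0.613 and the 786 samples between 0.981 and 1.40, while on the chromosomes all 6 lie between 0.933 and 0.990.

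The chromosomes as a whole showed no such distance between the lines, and rDNA showed the opposite order. The ratio of chromosomes 1 to 22 and X lay between 0.933 and 0.990 in all 6 samples, which follows from their making up most of each library. Sparse sites of the chromosomes did separate the lines, with 786 above 769. This held at 1 to 2 and at 3 to 7 CCGG sites in 1 kb, with values given below by density. Relative to the chromosomes, the contigs had a ratio 0.796 times as high over the 6 samples (exact paired permutation p = 0.219), below them in every 769 sample and in 786 AA replicate 2 and above them in 2 of 6. Without GL000225.1 this fold was 0.740 with an exact p of 0.03125, the smallest that 6 pairs allow. That contig was left out after seeing the data, so this p is a description and no test. The decoy sequence, a collection of mostly human sequence missing from the reference assembly, had ratios between 0.398 and 0.478 in 769 and between 0.673 and 0.755 in 786. The contigs exceeded it in 6 of 6 samples, by 1.36-fold (exact paired permutation p = 0.03125, 0.0938 after Benjamini-Hochberg adjustment over the 3 classes compared). On the rDNA contig, which carries the genes of ribosomal RNA, the order was reversed, at 1.75 to 2.56 in 769 and 0.683 to 0.925 in 786. The line fold of the contigs relative to the chromosomes, the decoy and the rDNA contig was 2.10, 1.27 and 5.20, each with an exact permutation p of 0.1, the smallest possible.

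Single contigs spread far more than their sum. Over the 36 contigs read out, the median ratio was 0.277 in the 769 control, 0.462 and 0.271 in its AA replicates 1 and 2, 0.807 in the 786 control, and 0.957 and 0.878 in its AA replicates. The medians of 14504 bins of 100 kb on the chromosomes, in the same order, were 0.613, 0.887, 0.708, 0.542, 0.892 and 0.997. In 769 the middle contig thus lay below the middle chromosome bin in 3 of 3 samples. In 786 it lay above the middle bin in the control and AA replicate 1 and below it in AA replicate 2. Between 5 and 6 of the contigs had a ratio over 1 in the 769 samples, against 14 to 17 in the 786 samples. These were 13.9% to 16.7% of the contigs in 769 and 38.9% to 47.2% in 786. Of the bins, 38.8% to 45.7% had a ratio over 1 in 769 and 34.9% to 49.8% in 786. A ratio under 0.1 was found for 13, 3 and 8 contigs in the 769 control and AA replicates 1 and 2, and for 6, 2 and 1 in 786. These made up 36.1%, 8.33% and 22.2% of the contigs in 769, beside 31.9%, 16.2% and 25.6% of the bins. In 786 the shares were 16.7%, 5.56% and 2.78%, beside 35.7%, 11.4% and 9.82% of the bins. In the shallow 786 control all 6 contigs under 0.1 had 0 HpaII tags.

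**Figure D2:**
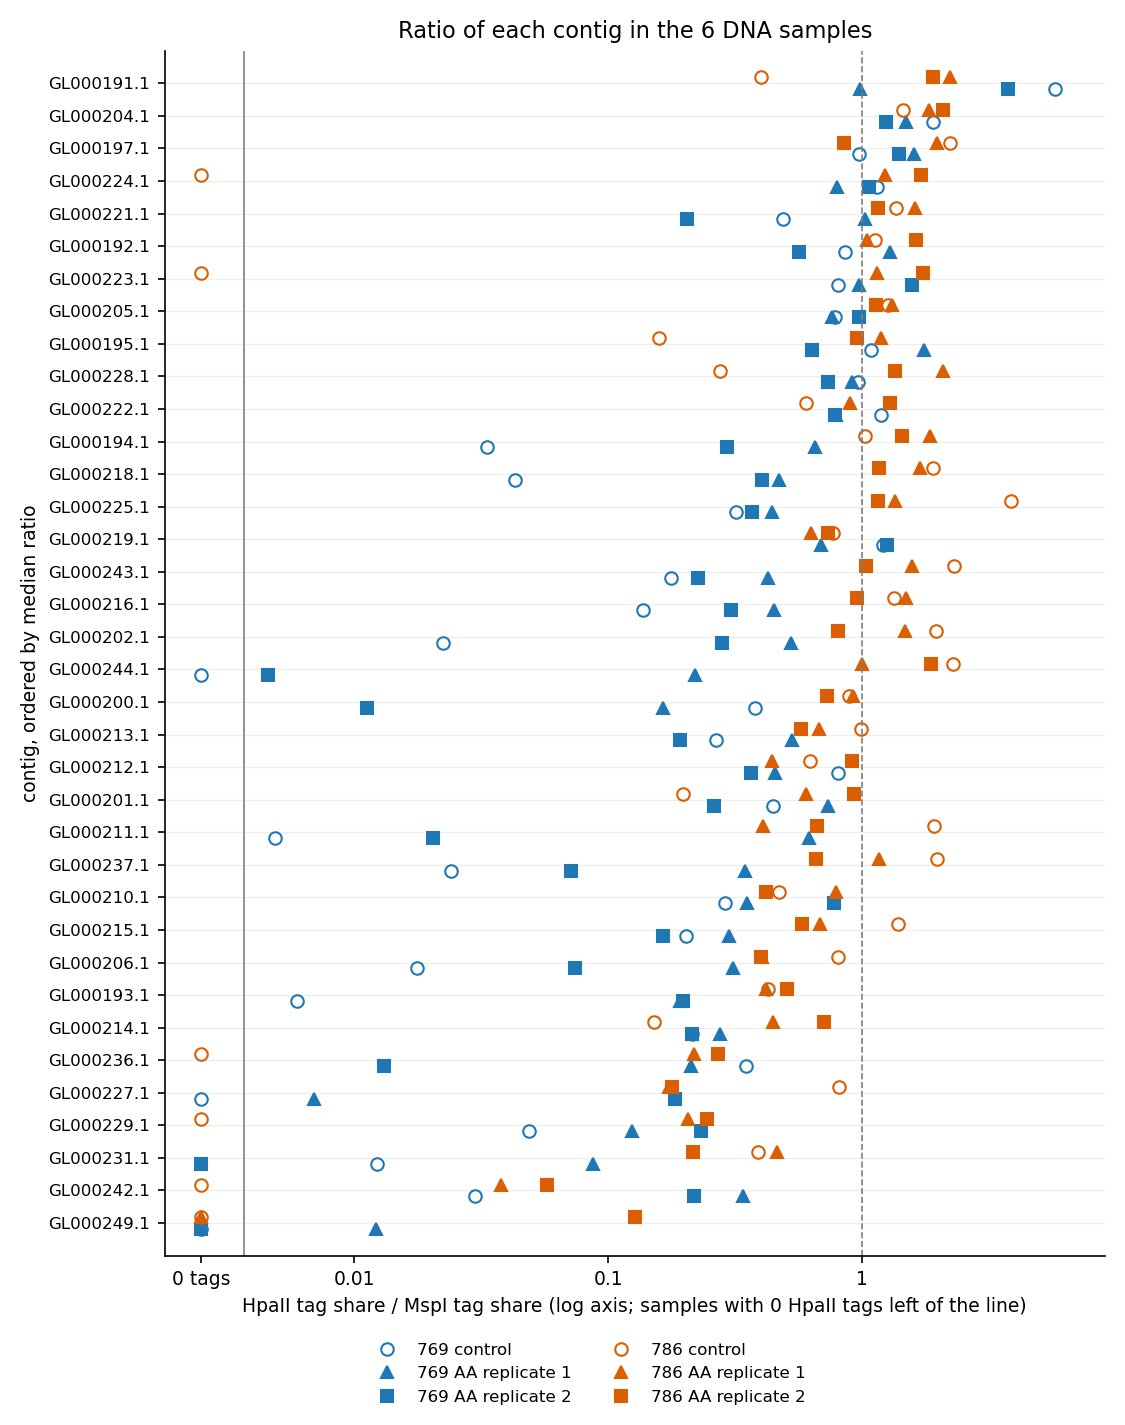
HpaII over MspI tag share of each of the 36 contigs (log axis) in the 6 DNA samples, ordered by their median, with samples of 0 HpaII tags set apart on the left. From the middle of the plot downward most 769 samples lie to the left of the 786 samples of the same contig, and the control of 769 is often the lowest point.

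The contigs with the most MspI tags included some of the steadiest and some of the most divided. GL000225.1 was the richest, with 17838 MspI tags over the 6 libraries at 421 sites between positions 890 and 209794 (hg19), followed by GL000193.1 with 6219. GL000204.1 was the contig least affected by divided tags, with only 9.74% of its MspI tags at sites with counts that were not whole. Its ratio was 1.90, 1.49 and 1.24 in the 769 control and AA replicates 1 and 2 and 1.45, 1.84 and 2.08 in 786, so all 6 samples lay above the library average and the lines overlapped. GL000205.1 had ratios of 0.779, 0.759 and 0.969 in 769 and 1.26, 1.30 and 1.13 in 786, close to the average in both lines but without overlap. Without the site at position 34180 the lines of GL000205.1 overlapped. The ratios were then 0.860, 0.714 and 1.04 in 769 and 0.855 (control, on 12.5 HpaII tags), 1.32 and 1.07 in 786. GL000219.1 ran the other way, with 1.21, 0.690 and 1.25 in 769 and 0.769, 0.628 and 0.735 in 786, and here the ranges overlapped.

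The remaining contigs rich in MspI tags lay lower. GL000214.1 was low in every sample, between 0.151 (786 control, on 3 HpaII tags) and 0.709 (786 AA replicate 2). The ratio of GL000212.1 stayed between 0.364 and 0.910, and that of GL000201.1 between 0.197 (786 control, on 3 tags) and 0.926, with the lines overlapping in both. GL000195.1 ranged from 0.158 in the 786 control, on 3.43 HpaII tags, to 1.75 in 769 AA replicate 1.

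Besides GL000204.1, the 4 contigs with the highest median ratio were GL000191.1, GL000197.1, GL000224.1 and GL000221.1. The highest ratio of any contig read out, 5.71, was that of GL000191.1 in the 769 control, where it had 319 HpaII tags, and it fell to 1.56 on 74.1 tags without the site at position 29497. Its other ratios were 0.982 and 3.73 in 769 AA replicates 1 and 2, 0.399 in the 786 control on 2.5 HpaII tags, and 2.21 and 1.89 in the 786 AA replicates. GL000197.1 lay between 0.845 and 2.22 (786 control, on 4.5 HpaII tags) and GL000224.1 between 0 (786 control) and 1.71, and in both the lines overlapped. GL000221.1 had ratios of 0.485, 1.03 and 0.205 in 769 and 1.36, 1.61 and 1.16 in 786. Its lines did not overlap, but the 786 control rests on 3 HpaII tags and was at 0.159 without the site at position 82580, below all 3 of the 769 samples.

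The lowest medians belonged to GL000249.1, GL000242.1, GL000231.1, GL000229.1 and GL000227.1. GL000249.1 stood lowest, with 1 HpaII tag in 769 AA replicate 1, 4 in 786 AA replicate 2 and none in the other 4 libraries, against 40 to 145 MspI tags. With 5 HpaII tags in all it was the only contig read out that fell under the minimum of 10 for testing, so 35 contigs were tested. GL000242.1 was higher in the 769 samples (0.0300, 0.340 and 0.217) than in 786 (0, 0.0379 and 0.0574), but its 769 control, on 4.5 HpaII tags, lay within the 786 range. GL000229.1 did not exceed 0.244 in any sample and GL000231.1 did not exceed 0.464. The ratio of GL000227.1 stayed at or under 0.183 in 5 samples, and its 0.811 in the 786 control rests on 1.5 HpaII tags at a single site.

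Between lines, the direction found for the class ran through many contigs. In 16 of the 36 contigs (44.4%) all 3 samples of 786 had a higher ratio than all 3 of 769, against 9.49% of all 14540 features, that is, of the contigs and the chromosome bins with as many MspI tags. In 0 contigs did all 3 samples of 786 lie below 769, where 7.1% of features did. In the 786 control 34.7% of the bins and 6 of the contigs had 0 HpaII tags. A feature with none there cannot have all 3 samples of 786 above, so these shares depend on that library. With the AA samples alone, which leaves out the shallow control, 22 contigs (61.1%) had both 786 samples above both 769 samples, against 27.8% of features. Only GL000242.1 had both below, against 16.8% of features. The 16 were GL000193.1, GL000194.1, GL000200.1, GL000202.1, GL000205.1, GL000206.1, GL000213.1, GL000215.1, GL000216.1, GL000218.1, GL000221.1, GL000225.1, GL000231.1, GL000237.1, GL000243.1 and GL000244.1. They include both contigs of each of the 3 pairs described above as sharing tags. In the 786 control these 16 had between 2.33 and 310 HpaII tags, and 5 of them had fewer than 5. With the richest HpaII site of every contig removed the count was 14, of which 13 were among the 16. GL000200.1, GL000205.1 and GL000221.1 dropped out.

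The same difference was tested contig by contig with edgeR's quasi-likelihood test of HpaII relative to MspI, adjusted by the Benjamini-Hochberg method over all 13969 features, and a feature with an adjusted p under 0.05 was called. The fitted log2 difference of 786 over 769 was positive in 28 of 35 contigs, with a median of 0.73, beside 0.04 over all features. Only GL000225.1 was called, higher in 786, where 1.05% of all features were called. At an unadjusted p under 0.05 there were 12 contigs, and DESeq2 called 10, all of them higher in 786, where it called 8.83% of all features. Counts at an unadjusted p, here and below, were taken for contigs only, so no share over all features stands beside them. With at least 10 HpaII tags required in every HpaII library, 11 contigs were left to test and 5 were called, where 3.07% of features were. They were GL000225.1, GL000194.1, GL000218.1, GL000237.1 and GL000216.1. GL000237.1 and GL000216.1 are named here because of these values.

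The contigs closest to the threshold had wide differences and wide errors. For GL000237.1 the ratio was 0.0240, 0.345 and 0.0712 in the 769 control and AA replicates 1 and 2 and 1.97, 1.16 and 0.658 in 786, a log2 difference of 3.56 with an adjusted p (edgeR) of 0.0851. GL000216.1 had ratios of 0.137, 0.450 and 0.305 in 769 and 1.34, 1.48 and 0.952 in 786. In both contigs the lines did not overlap, but the gap between them was smaller than the range within 786. The 786 controls had 22.8 and 23.8 HpaII tags. For GL000194.1 and GL000218.1, which share tags, the edgeR log2 differences were 2.67 (adjusted p = 0.0761) and 2.74 (adjusted p = 0.0778).

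**Figure D3:**
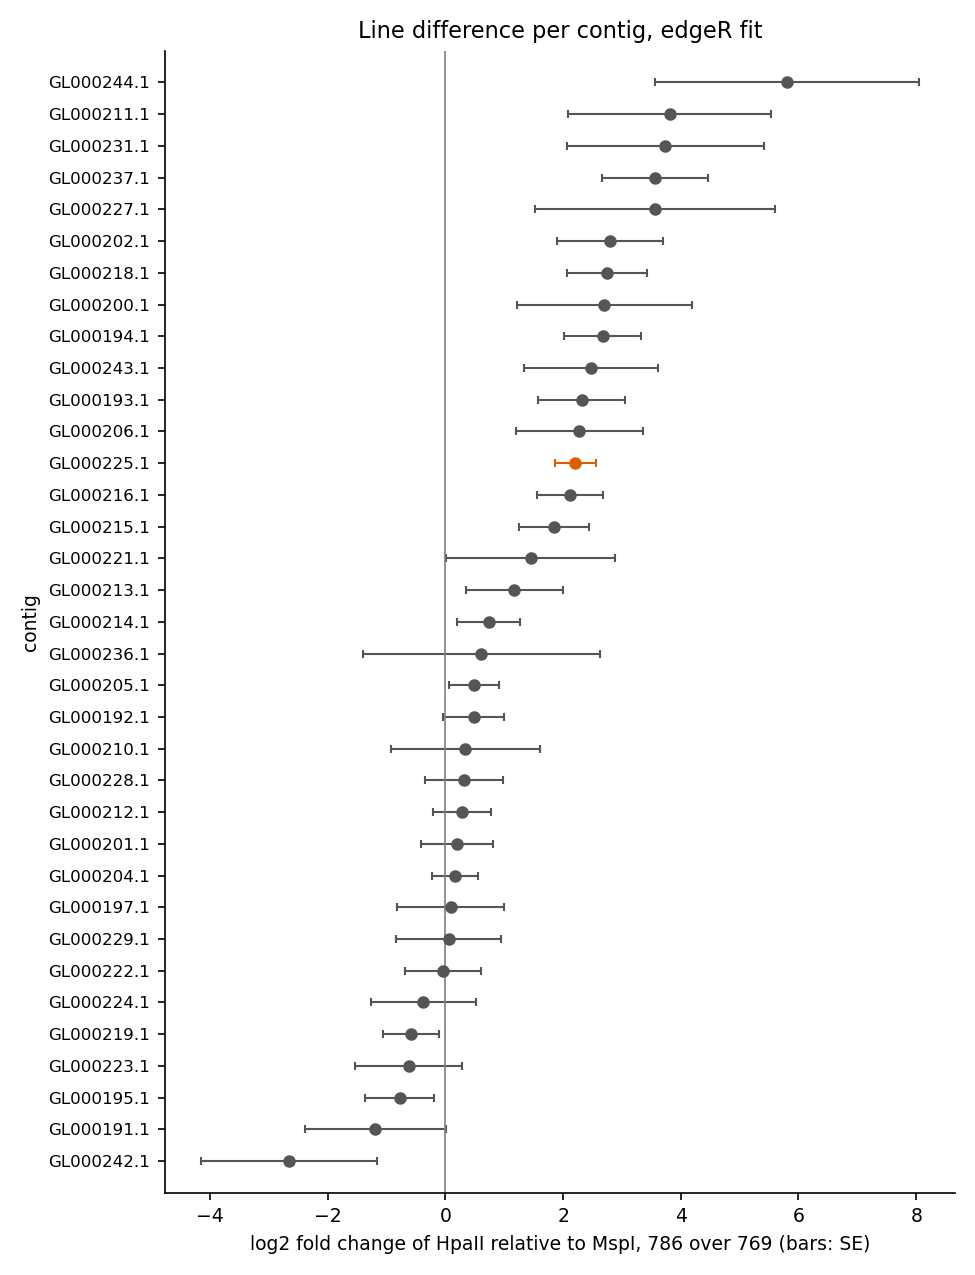
Fitted log2 difference of HpaII relative to MspI, 786 over 769, for the 35 contigs tested, with bars of 1 SE derived from the test statistic. GL000225.1, in orange, is the only contig called (2.21), and 28 of the 35 points lie to the right of 0.

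GL000225.1 is dense in sites, with 87.0% of its MspI tags at sites that have 8 or more CCGG sites in 1 kb. Its ratio was 0.317 in the 769 control, 0.440 and 0.370 in 769 AA replicates 1 and 2, 3.85 in the 786 control, and 1.34 and 1.16 in 786 AA replicates 1 and 2. All 786 samples lay above 1 and all 769 samples below 0.5. The fitted log2 difference between lines was 2.21 ± 0.35 (SE, edgeR adjusted p = 0.0129, adjusted p from 1.64e-13 to 0.104 over 16 alternative settings). The fold of 4.62 fell to 2.92 without the 769 control and to 2.93 without the 786 control, and was called in both. The call was lost without 769 AA replicate 2 (adjusted p = 0.104) and at sites with whole counts only (adjusted p = 0.0956). Without 769 AA replicate 2 only 4 of 15063 features were called, all lower in 786, in place of 147 of 13969. At sites with whole counts 145 of 12908 features were called.

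A single site set the 786 control of this contig apart. Of its 310 HpaII tags, 233 (75.2%) lay at position 36309, where the MspI library of the same DNA had 3.14 tags. The same site had 5 and 0 HpaII tags in 786 AA replicates 1 and 2 and 0 in each 769 library. Without it the ratio of GL000225.1 in the 786 control was 0.956, below the 1.34 and 1.16 of the AA replicates. The line difference, with the richest HpaII site of every contig removed, was 1.55 ± 0.25 on the log2 scale (edgeR adjusted p = 0.0123), so that the call between lines did not need that site.

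In 769 the AA samples were higher than the control on 4 contigs: GL000193.1, GL000218.1, GL000194.1 and GL000202.1. These were the only calls in that line, where 4.63% of all features were called. No contig was called lower. Both AA replicates lay above the control in 17 of the 36 contigs, against 38.0% of features, and both lay below it in 8, against 28.9%. The median log2 difference was 0.37 over the contigs tested and 0.33 over all features, and 7 contigs had an unadjusted p under 0.05.

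On these 4 contigs the 769 control had few HpaII tags. GL000202.1 had 7 HpaII tags in the 769 control and 283 and 68 in AA replicates 1 and 2, for ratios of 0.0225, 0.526 and 0.281. It is the contig of this group with the fewest divided tags, since only 13.8% of its HpaII tags lay at sites with counts that were not whole, and its log2 difference was 4.11 ± 0.89 (SE, edgeR adjusted p = 0.0191). GL000218.1 had ratios of 0.0430, 0.471 and 0.402, a log2 difference of 3.35 ± 0.61 (adjusted p = 0.00751). Its 769 control had 20.5 HpaII tags at position 35832 and 2.37 at its other sites. For GL000194.1 the ratios were 0.0334, 0.654 and 0.292 and the log2 difference 3.71 ± 0.71 (adjusted p = 0.0101), with 16.6 HpaII tags in the 769 control. In all 3 contigs both AA samples of 769 stayed below the 786 samples, whose ratios were between 0.805 and 1.95.

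Among the 4 called contigs GL000193.1 had the largest fitted difference, 4.97 ± 0.68 on the log2 scale (SE, edgeR adjusted p = 0.00169). Its ratio was 0.00599 in the 769 control, on 4.83 HpaII tags, and 0.192 and 0.198 in AA replicates 1 and 2, beside 0.426 (on 11.7 tags), 0.419 and 0.507 in 786. Here too a single site carried much of the count. Position 26378, whose counts are whole, had 0 HpaII tags in the 769 control beside 145 MspI tags. It held 117 of the 197 HpaII tags (59.4%) of AA replicate 1 and 83 of the 84.7 (98.0%) of AA replicate 2. Without this site the ratios of the 769 samples were 0.00653, 0.0851 and 0.00396, so AA replicate 2 no longer stood above the control, and the log2 difference was 2.43 with an adjusted p of 0.286. GL000218.1, GL000194.1 and GL000202.1 were still called with the richest HpaII site of every contig removed.

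With all libraries thinned to the smallest of their enzyme, none of the 4 contigs was called by edgeR (adjusted p from 0.188 to 0.51). The fitted log2 differences were 9.04, 3.41, 9.15 and 2.20 for GL000193.1, GL000218.1, GL000194.1 and GL000202.1. They cannot be read as sizes of effect. Thinning brought the 769 control HpaII library from 5.73e+06 tags to 189704, and these contigs had few tags in it before. GL000194.1 was also not called at sites with whole counts only (adjusted p = 0.5).

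**Figure D4:**
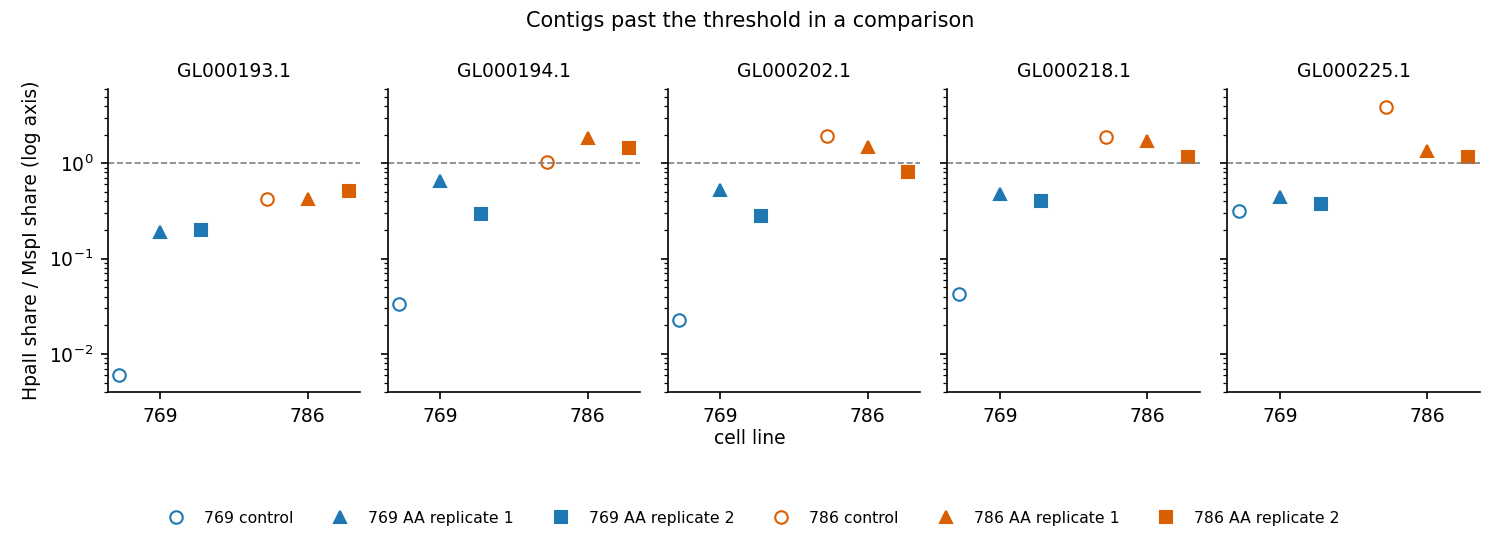
HpaII over MspI tag share (log axis) of the 5 contigs called in a comparison, with 1 point per DNA sample. On the first 4 contigs the control of 769 lies far below its AA replicates, at 0.00599 to 0.0430, while the 786 samples lie above all 769 samples, and GL000225.1 shows the high control of 786 at 3.85.

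In 786 the contigs as a group had no common direction with AA in the fit over all sites, and the count of each direction changed without the richest sites. Both AA replicates lay above the control in 13 contigs and both below it in 13, where 56.1% and 24.4% of all features did so. The median log2 difference was -0.01 over the 35 contigs, beside 0.77 over all features, with 16 contigs up and 19 down. With the richest HpaII site of every contig removed the median was 0.60, beside 0.77 over all features, with 24 up and 11 down. At sites with whole counts it was 0.71 over 13 contigs, beside 0.81, and without a low count filter 0.58 over 51, beside 2.05. Only GL000225.1 was called, and it fell, by 1.62 ± 0.30 on the log2 scale (SE, edgeR adjusted p = 0.0311), where 0.451% of features were called. There were 6 contigs with an unadjusted p under 0.05. The fall of GL000225.1 rests on position 36309: with the richest HpaII site of every contig removed the log2 difference was 0.39 (adjusted p = 0.634), and it was not called without 769 AA replicate 1 either (adjusted p = 0.056). The 786 control has 1 HpaII library of 189704 tags, and 6 contigs had none of them.

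The AA difference of 786 minus that of 769 was tested as such. It was called on 3 contigs, where 1.31% of features were called, and all 3 were negative, namely GL000193.1 at -4.89 ± 0.94 (SE, edgeR adjusted p = 0.0241), GL000225.1 at -1.99 ± 0.42 (adjusted p = 0.0356) and GL000218.1 at -3.80 ± 0.85 (adjusted p = 0.0469). On GL000218.1 the AA samples of 769 (0.471 and 0.402) lay above their control at 0.0430, while those of 786 (1.69 and 1.17) lay below their control at 1.91. GL000193.1 and GL000225.1 lost the call with the richest HpaII site of every contig removed, at -1.84 (adjusted p = 0.664) and 0.02 (adjusted p = 1). GL000225.1 lost it without 769 AA replicate 1 too (adjusted p = 0.0607). GL000218.1 kept it there but lost it when 769 AA replicate 1, 786 AA replicate 1 or 786 AA replicate 2 was left out (adjusted p from 0.0515 to 0.0706).

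Over both lines no contig was called for AA, where 0.229% of features were called. DESeq2 also called 0, where it called 3.96% of features, and 3 contigs had an unadjusted p under 0.05. The smallest p-values were those of GL000194.1, with a log2 difference of 2.23 ± 0.73 (SE, edgeR adjusted p = 0.224), and GL000193.1, with 2.39 ± 0.87 (adjusted p = 0.277). All 4 AA samples lay above the control of their line on 4 contigs, GL000194.1, GL000223.1, GL000229.1 and GL000242.1, against 22.1% of features. All 4 lay below on 0 contigs, against 8.05%. Of these 4, GL000223.1, GL000229.1 and GL000242.1 had 0 HpaII tags in the 786 control. The comparisons in 769, in 786 and over both lines use the same controls and are not independent of each other.

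MspI tags alone were compared between lines as a check of DNA content. No contig of the 36 was called, where 4.43% of 14559 features were, although DESeq2 called 2, both lower in 786, where it called 7.9% of features. At an unadjusted p under 0.05 there were 2 contigs, GL000228.1 with a log2 difference of -0.86 (edgeR adjusted p = 0.0564) and GL000197.1 with -1.34 (adjusted p = 0.0829). GL000197.1 had 587, 137 and 123 MspI tags in the 769 control and AA replicates 1 and 2 and 99, 70.5 and 118 in 786. GL000225.1 and the 4 contigs called in 769 were not among them.

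Individual sites could be followed where MspI depth was sufficient. A minimum of 10 MspI tags in every MspI library was met by 65 sites on 25 contigs. The share of them with any HpaII tag was 33.8%, 80% and 52.3% in the 769 control and AA replicates 1 and 2, and 35.4%, 90.8% and 89.2% in 786. On the chromosomes 17290 sites met the same minimum, and their shares were 26.1%, 67.7%, 36.2%, 16.4%, 54.5% and 53.9% in the same order. The contig sites thus had an HpaII tag more often in 6 of 6 samples, a difference that was not tested. Of the 65, however, 53 had counts that were not whole, where a fraction of a tag counts as a tag, and only 58 had a set of counts of their own. At the 12 sites with whole counts, on 7 contigs, the shares were 33.3%, 83.3%, 58.3%, 25%, 91.7% and 100%, beside 23.4%, 65.1%, 33.9%, 14.5%, 51.6% and 51.3% at 14492 such sites of the chromosomes.

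Sites rich in HpaII tags were often uneven between replicates. Position 31049 of GL000195.1, a site with whole counts, had 166, 280 and 1 HpaII tags in the 769 control and AA replicates 1 and 2, against 146, 20 and 23 MspI tags. Position 58657 of GL000204.1, also whole, had 42, 171 and 1 HpaII tags there, against 69, 28 and 42 MspI tags. At both sites the AA replicates of 769 differed from each other by more tags than either did from the control. Position 34180 of GL000205.1 had 0, 80 and 1 HpaII tags in 769 and 8, 138 and 40 in 786, beside 21 to 88 MspI tags. Position 15895 of GL000219.1 had 0, 177 and 120 HpaII tags in 769, and 4, 122 and 19 in 786. Of GL000225.1, position 104498 had 0, 106 and 9 HpaII tags in 769 and position 177788 had 210, 73.5 and 30.3. One more site of the 769 control, with 280 tags, held 36.3% of the HpaII tags of GL000225.1 in that library.

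The local density of CCGG sites separated the contigs from the chromosomes. CCGG sites cluster in CpG islands, which are usually unmethylated on chromosomes. The number of reference sites in the 1 kb around a site was used as a measure of that. It was counted between the outermost sites with a tag in that window, so it is a lower bound. Whether it falls short equally on contigs and chromosomes was not tested. On the chromosomes the ratio rose with density in every sample, from 0.152 to 0.571 at sites with 1 to 2 CCGG sites in the window to 2.13 to 3.78 at 16 or more. On the contigs the densest class reached only 0.598, 0.723 and 0.864 in the 769 control and AA replicates 1 and 2 and 0.686, 1.18 and 0.827 in 786. The contigs were below the chromosomes in 6 of 6 samples there, by a fold of 0.308 (exact paired permutation p = 0.03125, 0.125 after adjustment over the 4 classes). That class has 125 sites on the contigs and 9.65 HpaII tags in the 786 control.

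At 8 to 15 sites in 1 kb the lines did not overlap on the contigs, as in the sparser classes given below. The ratio was 0.679, 0.646 and 0.612 in the 769 samples, compared with 1.61 to 1.91 on the chromosomes, and 2.85, 1.10 and 1.08 in 786, compared with 1.49 to 1.66. The contigs of 769 were at 0.368 times the chromosome value and those of 786 at 0.968 times, a line fold of 2.63 (exact permutation p = 0.1, the smallest possible, 0.2 after adjustment). The site at position 36309 of GL000225.1, with 15 CCGG sites in its window, belongs to this class, and the 786 control value of 2.85 includes it. Without that site the value was 1.01 and all 6 samples lay below the chromosomes, at 0.368 times their value in 769 and 0.686 times in 786. The fold over the 6 samples was then 0.503 (exact paired permutation p = 0.03125) in place of 0.597 (p = 0.125), and the line fold was 1.86 (exact permutation p = 0.1). The site was chosen after seeing the data and left out of the contigs only. These p-values are not adjusted over the density classes, so the values without the site are a description and no test. In sparser sequence the difference between contigs and chromosomes did not pass the exact paired permutation test, with folds of 1.22 at 1 to 2 sites (p = 0.281) and 1.22 at 3 to 7 sites (p = 0.125), each above the chromosomes in 4 of 6 samples. There too the lines did not overlap on the contigs. The ratio was 0.237 to 0.325 in 769 and 0.556 to 0.795 in 786 at 1 to 2 sites. At 3 to 7 sites it was 0.404 to 0.740 and 0.917 to 1.13. The chromosomes showed the same order without overlap, at 0.152 to 0.320 and 0.470 to 0.571 at 1 to 2 sites. At 3 to 7 sites they had 0.420 to 0.599 and 0.674 to 0.712. Relative to the chromosomes the line fold was 1.08 at 1 to 2 sites and 1.44 at 3 to 7.

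**Figure D5:**
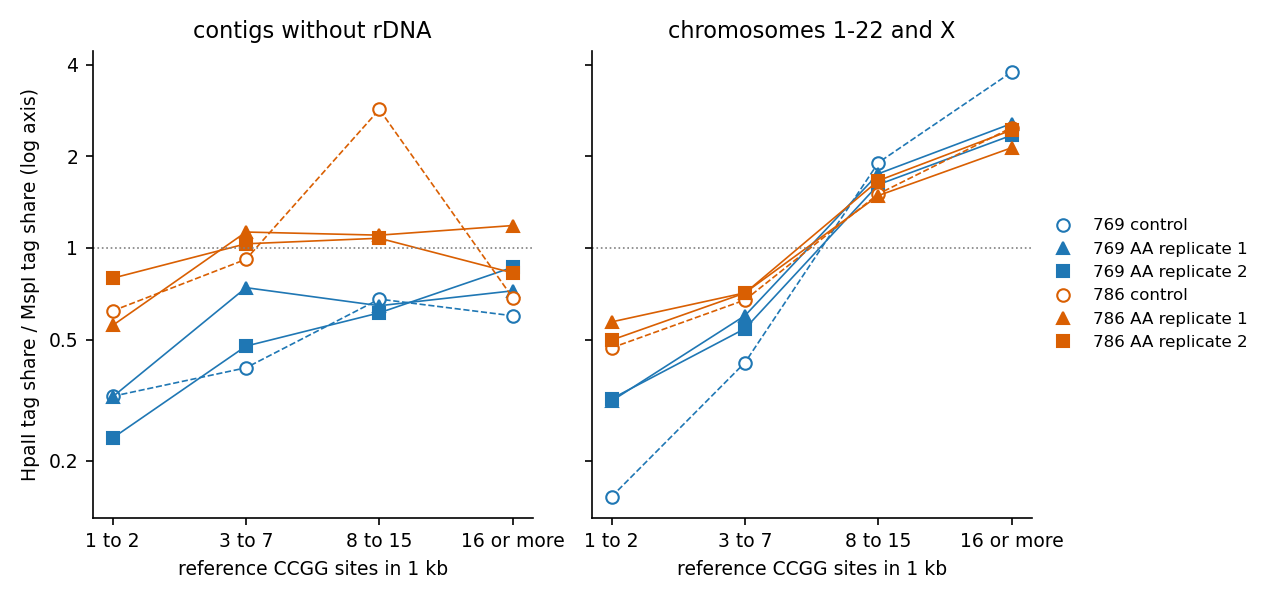
HpaII over MspI tag share (log axis) by the number of reference CCGG sites in 1 kb (a lower bound). The contigs are on the left and chromosomes 1 to 22 and X on the right, with 1 line per DNA sample. On the chromosomes every line climbs to between 2.13 and 3.78, while on the contigs the densest class stays between 0.598 and 1.18 and the high point of 2.85 is the 786 control.

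The order of the contigs was stable within 769 and among the AA samples of 786. Spearman's coefficient of the ratio over the 36 contigs, which is a description because contigs share libraries and tags, was 0.760 to 0.782 between the samples of 769 and 0.781 between the AA replicates of 786. Across lines, the 786 AA replicates correlated with the 769 samples at 0.477 to 0.724, so much of the order was common to both lines. The 786 control correlated with its own AA replicates at 0.476 and 0.277 and with the 769 samples at -0.158, 0.133 and -0.049. With the density of sites over a whole contig the ratio had coefficients between -0.195 and 0.00026 over the 36 contigs. With the percentage of MspI tags at sites with counts that were not whole the coefficients were between -0.403 and 0.108.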

How the data were processed

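Per the labels' protocols, HpaII and MspI digests were ligated, cut with EcoP15I, transcribed in vitro and amplified. The deposited files give expected counts of tags per CCGG site, not normalized as far as the files show, on hg19 per the submitters' processing notes. No aligner is named here, as it was not given in the sources used. Counts were summed per GL contig and per 100 kb bin of chromosomes 1 to 22 and X and rounded. Features with at least 20 MspI tags in each MspI library and 10 HpaII tags over 6 were tested with edgeR 4.0.16 (R 4.3.3), over all 12 libraries, with terms for DNA sample, enzyme, enzyme by line and enzyme by AA (in a second fit, AA within line), and TMM within each enzyme. Each line having 1 control, both lines share 1 estimate of spread (3 and 2 residual degrees of freedom), and a control is taken to vary as much as any AA sample. Each SE given with an edgeR value was derived from the test, as the absolute log2 difference over the square root of the F statistic. Class values were tested by exact permutation over samples. The script was tested on simulated data. Contigs were named by rule: the 10 with most MspI tags, those called, the 5 highest and 5 lowest medians, and the 2 with smallest p where none was called; sites, the 10 with most HpaII tags on these. Members and lists were chosen with earlier results of these data known. Alternatives included DESeq2 1.42.0, other scalings and filters, thinning, sites with whole counts (tolerance 1e-06), a replicate block and leaving out each DNA sample. No hg19 genome was used here, so neither sequences nor gene annotation of the contigs are given.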

Additional observations from a re-analysis of the deposited data

Results flagged for a closer look

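On 3 contigs the AA contrast differed between the lines by a test of the difference itself (786 minus 769, log2, edgeR). The values were -4.89 for GL000193.1, -1.99 for GL000225.1 and -3.80 for GL000218.1. Over 12 alternative settings the adjusted p of GL000193.1 ran from 6.92e-05 to 0.664 and that of GL000218.1 from 0.000267 to 0.108. For GL000225.1 it ran from 1.06e-05 to 1 over 13 settings.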

How the results depend on the processing

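The counts of contigs called, out of 35 tested (36 for MspI tags) unless another number is given, moved as follows. Without a low count filter (51 contigs tested) they were 2 for AA over both lines, 2 for AA in 786, 5 for the difference between lines in AA and 7 for 786 against 769. In the same order, 385, 377, 652 and 655 of all 24930 features were called. With at least 10 HpaII tags in every HpaII library (11 contigs left) the counts of contigs were 2 for AA in 769 and 5 for 786 against 769. Of 4361 features, 215 and 134 were called. With thinning to the smallest library (27 contigs left, 36 for MspI tags) the counts of contigs were 0 for AA in 769, 1 for the difference, 2 for 786 against 769 and 1 for MspI tags. The features called were 22, 107 and 214 of 10580, and 700 of 13011 for MspI tags. At sites with whole counts only (13 contigs left) the counts of contigs were 2 for AA in 769, 0 for AA in 786, 1 for the difference and 0 for 786 against 769. The features called were 671, 82, 230 and 145 of 12908. Library totals without TMM gave 0 contigs for AA in 786, 1 for the difference and 1 for MspI tags. The features called were 40 and 101 of 13969, and 649 of 14559 for MspI tags. DESeq2 gave 5 contigs for the difference, 10 for 786 against 769 and 2 for MspI tags, with the median of all features for 786 against 769 moving from 0.04 to 0.16. It called 949 and 1234 of 13969 features, and 1150 of 14559 for MspI tags. HpaII alone gave 2 contigs for 786 against 769, where 252 of 13969 features were called. Removing the richest HpaII site of each contig, chosen after seeing the data, gave 0 contigs for AA in 786, 1 for the difference and 2 for 786 against 769. The features called were 62, 181 and 151 of 13969. Leaving out 1 DNA sample at a time (35 to 39 contigs tested, 36 to 40 for MspI tags) gave 0 to 1 for AA in 786 (0 without 769 AA replicate 1), 1 to 6 for the difference (1 without 769 AA replicate 1, 6 without 769 AA replicate 2), 0 to 6 for 786 against 769 (0 without 769 AA replicate 2, 2 without 769 AA replicate 1, 6 without 786 AA replicate 2) and 0 to 1 for MspI tags (1 without 786 AA replicate 1). Counts over all features also moved when a DNA sample was left out. For 786 against 769 they were 4 of 15063 without 769 AA replicate 2 and 185 of 13952 without 769 AA replicate 1. Without 786 AA replicate 2 they were 316 of 13852, in place of 147 of 13969 with all samples. The cause of these moves was not tested.

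The AA effect on the class ratio turned positive (log2) at sites with whole counts, 0.37, without the 10 richest sites, 0.16, for the median contig, 0.27, and without GL000225.1 (also chosen after seeing the data), 0.14. The exact permutation p-values were 0.111 (the smallest possible), 0.444, 0.556 and 0.444, in that order. Without GL000225.1 the class stood at -0.44 against the chromosomes (log2, exact permutation p = 0.0312). The MspI share of 786 against 769 was 0.0378 (log2) at whole-count sites. GL000225.1 reversed at whole-count sites (0.0875 for AA in 786, 1.76 for the difference) and without its richest site (0.389 and 0.0186).

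Whether the AA numbers 1 and 2 pair the samples across lines is not known. The correlation of deviations was 0.00154 over 14540 features, which cannot settle it. A replicate block gave 5 contigs called for 786 against 769, where 372 of 13969 features were called in place of 147. Omitting a control leaves AA in its line, AA over both lines and the difference without a value. Depth limits the 786 control most, with 612 HpaII tags on the contigs. The share of contig sites with an HpaII tag in 786 AA replicate 2 went from 89.2% to 100% at sites with whole counts, chosen after seeing the data, as was leaving out position 36309.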
